A study of Homo sapiens with 4 samples.

Results

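The clustered protocadherin genes lie on chromosome 5, and their open chromatin was described from all ATAC-seq peaks whose summit fell between 140.15 and 140.9 Mb of that chromosome (hg19), a window of 750 kb. The window was set by position alone, with earlier results of these data known. It held 125 of the 295586 peaks called on chromosomes 1 to 22 and X, and after the 4 peak lists were merged it held 67 of 167619 regions. ATAC-seq finds open DNA by letting a transposase insert adapters into it. The libraries came from SKBR3 and T47D, which are established breast cancer lines, and from HCT116 and RKO, which are established colorectal cancer lines. All 4 lines were labelled wild type, no treatment was named, and each was represented by 1 library. The culture medium was McCoy's 5A for SKBR3 and HCT116, DMEM for RKO and RPMI for T47D. With 1 library per line there is no replicate check, so every difference between lines is a description of these libraries.

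Clustered protocadherins are cadherin-like adhesion proteins of the cell surface, known best from neurons, where each cell uses a small, varied set of them. In the alpha and gamma families every variable first exon has its own promoter and is spliced to constant exons shared by the family, which code for the inner end of the protein. Beta genes have their whole coding sequence in 1 exon and no constant part. The factor CTCF and cohesin are known to bind many of these promoters and the distal enhancers that serve them. In cancers of the breast and colon, stretches of the cluster are known to gain DNA methylation.

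RefSeq lists 53 protein-coding clustered protocadherin genes on chromosome 5, of which 15 are alpha, 16 beta and 22 gamma genes in that order along the chromosome. The annotation used here is of another build (GRCh38.p14) than the peaks. Single peaks were therefore not assigned to single promoters, to variable or to constant exons. That the window holds the 3 families was taken from its definition. Other genes in it were not looked for, so a protocadherin peak or region here means any that lies in the window. Promoter sequences (300 bases, from 250 before the start to 50 after it) were matched by symbol for 47 of the 53 genes. The 4 letters CGCT, the core of the element known to be shared by most clustered protocadherin promoters, stood on either strand in 46 of the 47, all but PCDHA9. Of all 35116 promoter sequences in the table, 70.0% held them. The most frequent runs of bases differed between the families. The most frequent run of 10 bases was TGATGTCGCT in alpha promoters (8 of 13 genes), GGTGGCGCTG in beta promoters (12 of 14) and GCGCCGCTGT in gamma promoters (9 of 20). In all promoters these runs stood in 0.0342%, 0.276% and 0.131%. The runs were chosen for being frequent in these promoters, and among runs tied for the highest count those holding CGCT were preferred. That they hold CGCT is thus no result, and the counts only describe them. The first 2 genes of each family along the chromosome that hold their family's run are shown, to let the families be compared around the core (5′ to 3′, plus strand, from RefSeq GRCh38.p14, CGCT in capitals).
PCDHA1, chr5:140786084-140786123: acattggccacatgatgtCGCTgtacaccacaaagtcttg
PCDHA2, chr5:140794779-140794818: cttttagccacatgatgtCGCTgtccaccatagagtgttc
PCDHB2, chr5:141094542-141094581: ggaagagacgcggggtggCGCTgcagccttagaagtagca
PCDHB3, chr5:141100391-141100430: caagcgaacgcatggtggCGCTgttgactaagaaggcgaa
PCDHGA1, chr5:141330401-141330440: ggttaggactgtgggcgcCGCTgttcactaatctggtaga
PCDHGB1, chr5:141350023-141350062: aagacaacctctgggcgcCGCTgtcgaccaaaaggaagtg
These positions are not on the hg19 scale of the peaks. In these sequences the core began 38 bases before the annotated start in PCDHA1 and 55 bases before it in PCDHA2. It began 55 bases before the start in PCDHB2, 64 in PCDHB3, 95 in PCDHGA1 and 58 in PCDHGB1. A simplified core of the CTCF motif was taken as CCA, any 2 bases, AG, any 2 bases, GGC. It stood on either strand in 1 of the 47 promoters, that of a beta gene, and in 2.41% of all promoters. A second, different string for the motif (CCGCG, any 1 base, GG, any 1 base, GGCAG) stood in 0 of the 47 and in 0.0655% of all. No match says only that these letters are not in the 300 bases searched. Because the genes are related copies, reads can match more than 1 of them. Among the 47, PCDHGB4 and PCDHGB5 had a promoter that shared a run of 60 bases, the read length, with that of another gene.

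The first comparison asked how much of the protocadherin window was called open in each line. T47D had the most peaks, 48, followed by SKBR3 with 41, RKO with 26 and HCT116 with 10. The libraries held 5450100 tags without duplicates in T47D, 4313512 (SKBR3), 3262240 (RKO) and 1057628 (HCT116), so the counts ran in the order of depth, with 7.97 (RKO) to 9.51 (SKBR3) window peaks per 1000000 tags. They did not run in the order of the lists' lengths. T47D had 0.620 window peaks per 1000 peaks of its list (exact 95% interval 0.457 to 0.822, counting error only). RKO had 0.390 (0.255 to 0.572), SKBR3 0.367 (0.264 to 0.498) and HCT116 0.251 (0.120 to 0.461). The interval of T47D overlapped those of SKBR3, RKO and HCT116, narrowly for the last. With each list shortened to its 39899 strongest peaks by q, the length of the HCT116 list, T47D kept 29 window peaks, RKO 18, SKBR3 11 and HCT116 10. SKBR3 was then close to HCT116.

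**Figure D1:**
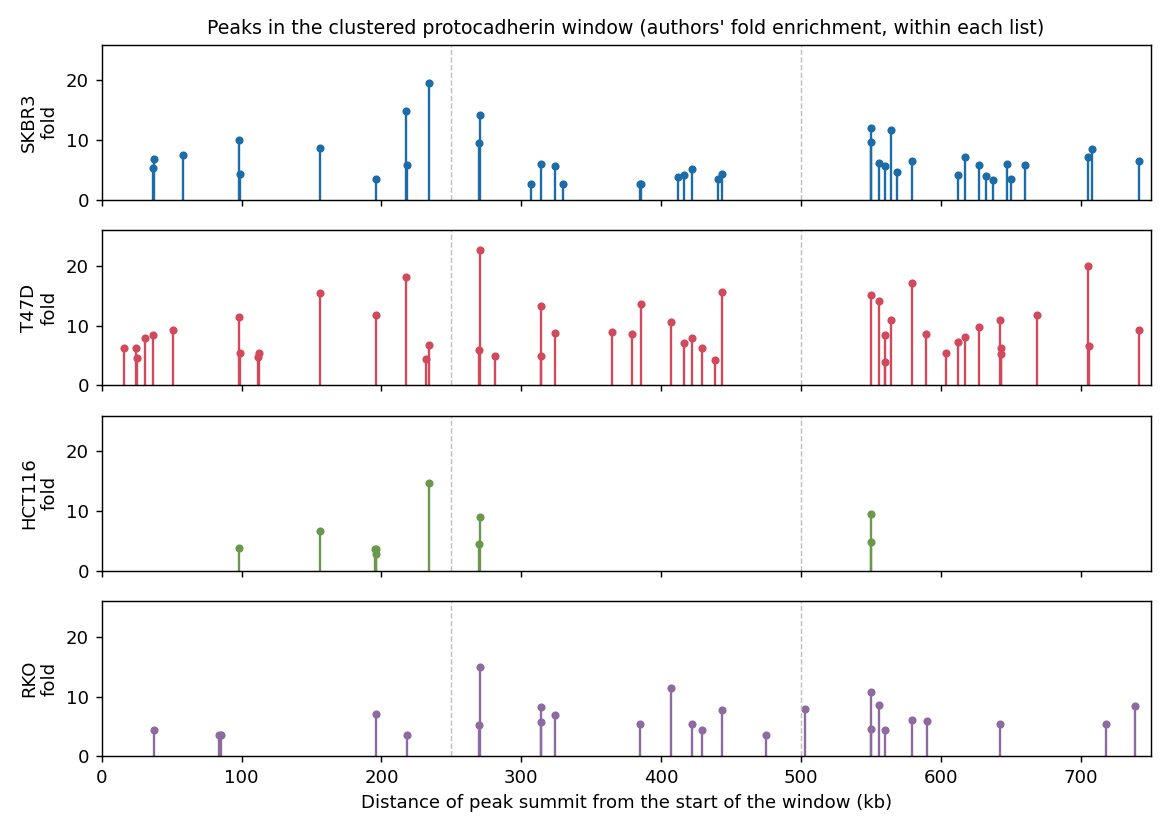
Each stem is a called peak, placed by the distance of its summit from the start of the protocadherin window (x axis, kb) with its fold enrichment within its own list (y axis), 1 panel per line. Dashed lines part the window into stretches of 250 kb. T47D has stems in each stretch, with the highest at a fold of 22.7, and HCT116 has 10 stems and none over 279 kb in the middle.

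Peaks were denser in the protocadherin window than in the rest of the genome in 3 lines. T47D had 64.0 peaks per Mb in the window and 26.2 in the rest, a ratio of 2.44. SKBR3 had 54.7 and 37.8 (ratio 1.45), RKO 34.7 and 22.6 (1.54) and HCT116 13.3 and 13.5 (0.986). Among 3838 windows of 750 kb with any peak, 322 (8.39%) held more T47D peaks than the protocadherin window. More RKO peaks were held by 20.7% of them, more SKBR3 peaks by 25.4% and more HCT116 peaks by 39.4%. Set against the 2 neighbouring windows of 750 kb the picture differed. The protocadherin window held 48 T47D peaks, against 41 in the lower and 54 in the upper neighbour. It held 41 SKBR3 peaks against 51 and 78, 26 RKO peaks against 47 and 50, and 10 HCT116 peaks against 29 and 30. The ratio to the mean of the neighbours was 1.01 (T47D), 0.636 (SKBR3), 0.536 (RKO) and 0.339 (HCT116). The neighbours took 0.727 and 0.752 of every 1000 HCT116 peaks, and 0.529 and 0.697 of every 1000 T47D peaks. For RKO they took 0.706 and 0.751, and for SKBR3 0.457 and 0.699. Per 1000 peaks, HCT116, RKO and SKBR3 each had fewer in the protocadherin window than in either neighbour. Copy number was not measured, and its part in these counts was not tested.

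**Figure D2:**
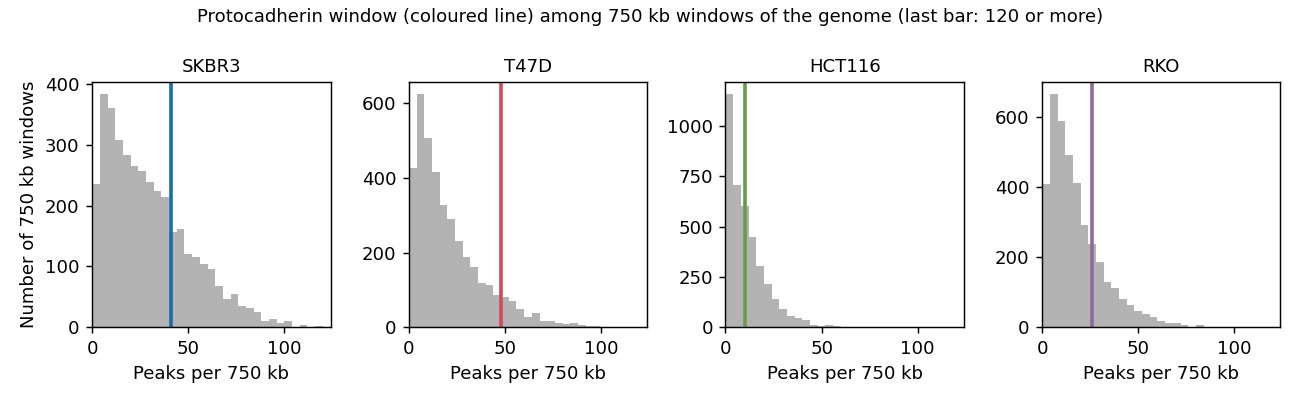
Grey bars count the 750 kb windows of chromosomes 1 to 22 and X (y axis) by the peaks they hold (x axis), 1 panel per line, and the coloured line marks the protocadherin window. T47D, at 48 peaks, stands farthest to the right of its bars, with more peaks in 8.39% of windows, and HCT116, at 10, stands nearest to the bulk.

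The T47D peaks of the window were wide. Their median width was 279.5 bp, against 211 bp over the whole T47D list. In RKO it was 189 bp in the window and 168 bp in the list. It was 164 bp in the window and 199 bp in the list in SKBR3, and 118.5 bp and 168 bp in HCT116. Peaks covered 16534 bp of the window in T47D (2.20%), 8862 bp in SKBR3 (1.18%), 5898 bp in RKO (0.786%) and 1978 bp in HCT116 (0.264%). Fold enrichment, the authors' ratio of stacked tags to local background, is a value of a peak within its own library, so its size was judged only against its own list, and folds of several lines stand side by side without a common scale. Its median in the window was 8.45 in T47D (interquartile range 6.12 to 11.5), against 7.38 over the list. In SKBR3 it was 5.78 (4.09 to 7.51) against 5.41, in RKO 5.59 (4.48 to 7.83) against 5.37, and in HCT116 4.64 (3.70 to 8.46) against 5.62. The protocadherin peaks were thus of middling strength, at median percentiles of 59.0 (T47D), 53.5 (SKBR3), 52.5 (RKO) and 32.0 (HCT116) of their lists. A −log10 q of at least 10 was reached by 26 of 48 T47D peaks in the window (54.2%, background 48.2%), 10 of 41 SKBR3 peaks (24.4%, background 30.0%), 7 of 26 RKO peaks (26.9%, background 30.9%) and 3 of 10 HCT116 peaks (30.0%, background 25.1%). All 4 shares lay near their backgrounds. Peaks that rest on 3 stacked tags or fewer numbered 8 of 41 in SKBR3, 4 of 26 in RKO, 4 of 10 in HCT116 and 0 of 48 in T47D. Over the lists such peaks made up 22.1% (SKBR3), 24.8% (RKO), 22.3% (HCT116) and 1.06% (T47D).

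The second comparison followed the calls along the window. Since the families follow each other as alpha, beta and gamma, the window was read in 3 stretches of 250 kb, lower (140.15 to 140.4 Mb), middle (140.4 to 140.65 Mb) and upper (140.65 to 140.9 Mb). The stretches are equal parts of the window, and the borders of the families were not placed on them. The breast lines had calls in all 3 stretches, with 15, 15 and 18 peaks in T47D and 10, 13 and 18 in SKBR3, from lower to upper. RKO had 5 peaks in the lower, 11 in the middle and 10 in the upper stretch. HCT116 had 6 in the lower and 2 each in the middle and the upper stretch. The strength of the calls also differed along the window. In SKBR3 the median fold was 7.17 in the lower, 4.13 in the middle and 6.06 in the upper stretch, and 2 of its 13 middle peaks reached a −log10 q of at least 10. In T47D the medians were 6.71, 8.60 and 8.91, and 8 of 15 middle peaks reached it. In RKO they were 3.58, 5.74 and 5.94, with 0 of 5, 3 of 11 and 4 of 10 peaks reaching it. The lower stretch was thus the weakest in RKO by count and by fold, and the middle stretch the weakest in SKBR3 by fold.

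**Figure D3:**
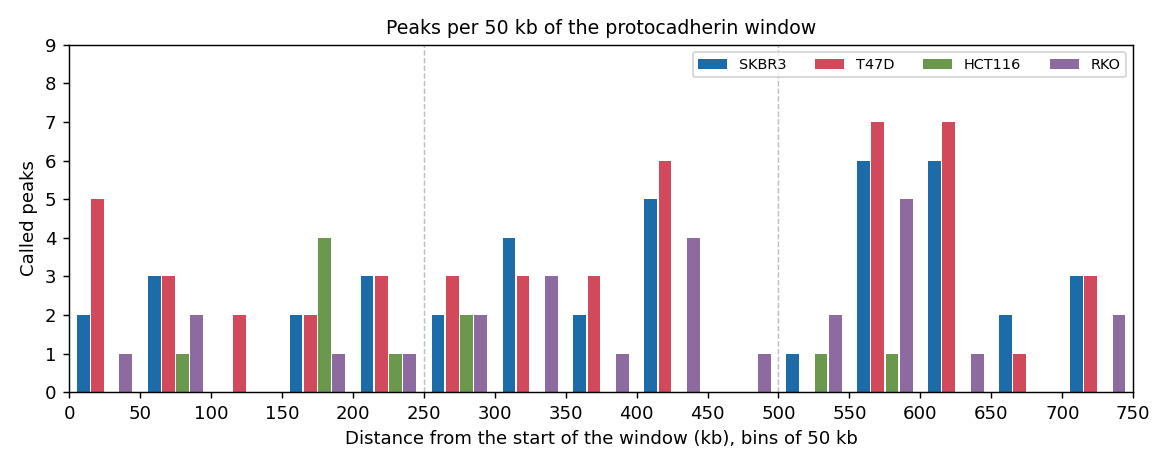
Bars give the called peaks of each line (y axis) in bins of 50 kb along the protocadherin window (x axis, kb from its start), and dashed lines part the 250 kb stretches. T47D and SKBR3 reach 7 and 6 peaks in the bins from 550 kb, and the bin from 450 kb holds 1 RKO peak and no other.

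Stretches without a summit differed between the lines. The median distance between neighbouring summits was 8342 bp in SKBR3, 9333 bp in T47D, 20436 bp in RKO and 35891 bp in HCT116. In both breast lines the longest stretch lay between the middle and upper parts, from 140593448 to 140699926 in SKBR3 (106 kb) and from 140593463 to 140700381 in T47D (107 kb). It crossed 2 regions, both called in RKO only: 140624905 to 140625009, with a fold of 3.58, and 140652564 to 140652835, with a fold of 7.85 and a −log10 q of 10.1. In RKO the longest stretch lay in the lower part, from 140235503 to 140346190 (111 kb), and crossed 5 regions called in other lines. HCT116 had no summit for 279 kb, from 140420806 to 140699944. Leaving out the regions at its borders that HCT116 called too, T47D had 13 peaks across it, SKBR3 11 and RKO 10, and 5 regions were called in all of those 3 lines. As the stretches were picked for holding no summit, no counting limit is given for them. At the edges of the window the last summits before its start were 35.8 kb (RKO and T47D) to 44.3 kb (HCT116) away, and the first after its end 0.909 kb (RKO) to 4.53 kb (SKBR3). The nearest summits inside were 15.7 kb (T47D) to 98.5 kb (HCT116) from the start and 7.95 kb (SKBR3) to 199.6 kb (HCT116) from the end. The upper neighbour's first peaks thus stood just outside, with folds of 14.3 (SKBR3), 20.0 (T47D), 12.5 (HCT116) and 5.78 (RKO).

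The third comparison asked which protocadherin regions the lines shared. Of the 67 regions, 46 were called in T47D (68.7%, 95% interval 56.2 to 79.4), against 45.3% of all regions of the series. SKBR3 was called in 38 (56.7%, 44.0 to 68.8), against a background of 65.4%. RKO was called in 25 (37.3%, 25.8 to 49.99), against 38.4%, and HCT116 in 8 (11.9%, 5.30 to 22.2), against 22.7%. T47D lay above its background beyond counting error and HCT116 below it, whereas SKBR3 and RKO lay within it. With lists of equal length, 38 regions were left in the window. T47D was called in 29 of them (76.3%, 59.8 to 88.6, background 48.0%), RKO in 18 (47.4%, 31.0 to 64.2, background 46.8%), SKBR3 in 10 (26.3%, 13.4 to 43.1, background 48.0%) and HCT116 in 8 (21.1%, 9.55 to 37.3, background 46.2%). SKBR3 then lay below its background as HCT116 did, and T47D stayed above. All these shares are of regions called in any line, so regions called in T47D alone lower the shares of the other lines. Peaks per Mb, window against the rest of the genome, gave ratios at equal length of 1.08 (SKBR3), 2.86 (T47D), 0.986 (HCT116) and 1.78 (RKO). A share below background is thus not by itself a lack of peaks against the line's own list. The regions called in exactly 1 line numbered 37 (55.2%, background 60.0%) and in 2 lines 14 (20.9%, background 20.0%). Those called in 3 lines numbered 12 (17.9%, 9.61 to 29.2, background 8.22%) and in 4 lines 4 (5.97%, 1.65 to 14.6, background 11.8%). The 4-line share thus lay within counting error of its background. Most of the 3-line regions, 9 of 12, were those missing in HCT116 alone, which made up 13.4% of the window (6.33 to 24.0) and 3.85% of the series. T47D alone was called in 17 regions (25.4%, 15.5 to 37.5, against 11.5%), SKBR3 alone in 13 (19.4%, against 30.5%), RKO alone in 6 (8.96%, against 14.8%) and HCT116 alone in 1 (1.49%, against 3.18%). The breast pair alone shared 8 regions (11.9%, against 12.4%). The colorectal pair alone shared 0 of 67, which allows a share of up to 4.48% (3 counts), against 1.61% in the series. T47D with RKO alone shared 5 (7.46%, against 1.92%).

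**Figure D4:**
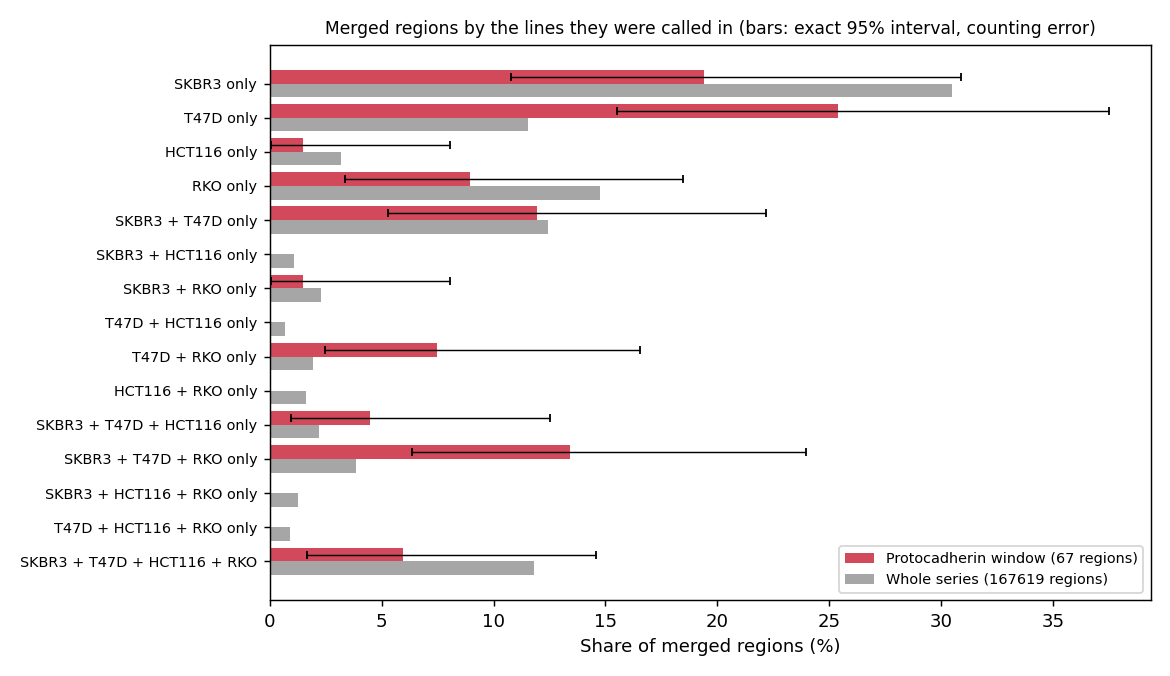
Bars give the share of merged regions (x axis, %) by the lines they were called in, for the 67 regions of the protocadherin window (red, with exact 95% intervals for counting error where the share is above 0) and for the 167619 regions of the series (grey). The red bars are longer for T47D only (25.4%) and for SKBR3 with T47D and RKO (13.4%). For all 4 lines the red bar is shorter (5.97%), but its interval (1.65 to 14.6) holds the series share of 11.8%.

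Within shared regions the summits of the lines mostly lay close together, as they did over the series, and merging by overlap favours this. Of the 24 regions that SKBR3 and T47D shared, the summits of the strongest peaks lay within 100 bp in 22 (background 90.0%), with a median distance of 36 bp. For T47D and RKO 14 of 18 did (background 89.0%), and for SKBR3 and RKO 13 of 14 (background 86.5%). With HCT116 it was 7 of 7 for SKBR3 (background 86.5%), 6 of 7 for T47D (background 89.2%) and 4 of 4 for RKO (background 88.6%). Taken list by list, T47D overlapped 27 of the 41 SKBR3 peaks (65.9%, background 47%) and 19 of the 26 RKO peaks (73.1%, background 49.2%). SKBR3 overlapped 25 of the 48 T47D peaks (52.1%, background 67.0%) and 15 of the 26 RKO peaks (57.7%, background 50.4%). RKO overlapped 19 of the 48 T47D peaks (39.6%, background 40.9%) and 15 of the 41 SKBR3 peaks (36.6%, background 29.8%). HCT116 overlapped 7 of the 48 T47D peaks (14.6%, background 33.9%), 8 of the 41 SKBR3 peaks (19.5%, background 24.8%) and 5 of the 26 RKO peaks (19.2%, background 39.8%). Of the 10 HCT116 peaks, 9 were overlapped by SKBR3 (background 72.0%), 9 by T47D (background 69.2%) and 6 by RKO (background 68.7%).

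The 4 regions called in every line lay between 140345866 and 140700704. The strongest was at chromosome 5, 140420424 to 140421012. It had folds of 14.2 (SKBR3), 22.7 (T47D), 9.08 (HCT116) and 15.0 (RKO), on 32, 71, 11 and 22 stacked tags. Its percentiles within the lists were 94.1, 99.2, 80.3 and 95.2, and its 4 summits lay between 140420806 and 140420828. It held the peak of highest fold in the window for T47D and for RKO. A weaker region lay beside it at 140419726 to 140420012, with folds of 9.47 (SKBR3), 5.96 (T47D), 4.54 (HCT116) and 5.21 (RKO). The region at 140699816 to 140700704 had folds of 11.9 (SKBR3), 15.1 (T47D), 9.47 (HCT116) and 10.8 (RKO), at percentiles of 88.6, 87.5, 82.1 and 84.0. It and the region at 140420424 were the only 2 of the 67 with a −log10 q of at least 10 in every line. Neither was assigned to a gene, and whether either lies at a protocadherin gene or at another gene was not tested. The region at 140345866 to 140346515 was uneven, at percentiles of 7.41 (SKBR3), 76.1 (T47D), 7.80 (HCT116) and 65.8 (RKO), with folds of 3.40, 11.7, 3.65 and 7.13.

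The 3 regions called in SKBR3, T47D and HCT116 but not in RKO were all in the lower stretch. That at 140383700 to 140384109 had the highest fold of the window in SKBR3, 19.6 (percentile 99.5), and in HCT116, 14.6 (percentile 97.2). In T47D it had a fold of 6.71 at percentile 45.7, on 8 stacked tags, and in RKO there was no call. Those at 140248419 to 140249179 and at 140305857 to 140306477 had folds of 10.0 and 8.58 in SKBR3, 11.4 and 15.4 in T47D, and 3.84 and 6.59 in HCT116. HCT116 called the region at 140248419 on 3 stacked tags, that at 140305857 on 7 and that at 140383700 on 21. RKO had no call at any of the 3, and the part of depth in this was not tested.

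The 9 regions called in all lines but HCT116 lay in the lower (1), the middle (5) and the upper stretch (3). The T47D peaks in them mostly ranked high in their own list, with a median percentile of 82.0. How T47D peaks in regions of this pattern rank over the whole series was not computed. In these 9 regions the T47D median fold was 13.3 (range 7.91 to 17.2), and 8 of 9 reached a −log10 q of at least 10. RKO had a median fold of 6.05 (4.39 to 8.51, percentile 56.2) and SKBR3 of 5.68 (2.56 to 6.84, percentile 52.6), with 2 and 0 of 9 reaching that q. In the middle stretch the region at 140535130 to 140535414 had folds of 2.56 (SKBR3), 13.6 (T47D) and 5.37 (RKO), and that at 140593304 to 140593694 had 4.26, 15.7 and 7.79. At 140464098 to 140464318 the folds were 5.97 (SKBR3), 13.3 (T47D) and 8.19 (RKO). At 140474074 to 140474620 they were 5.57, 8.76 and 6.85, and at 140571811 to 140571956 they were 5.11, 7.91 and 5.37. In the upper stretch the region at 140729516 to 140729916 had folds of 6.55 (SKBR3), 17.2 (T47D) and 6.05 (RKO). At 140705692 to 140706000 they were 6.22, 14.1 and 8.51, and at 140709917 to 140710123 they were 5.68, 8.41 and 4.39. The 1 region of the lower stretch, 140186517 to 140187387, had 6.84, 8.49 and 4.47.

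**Figure D5:**
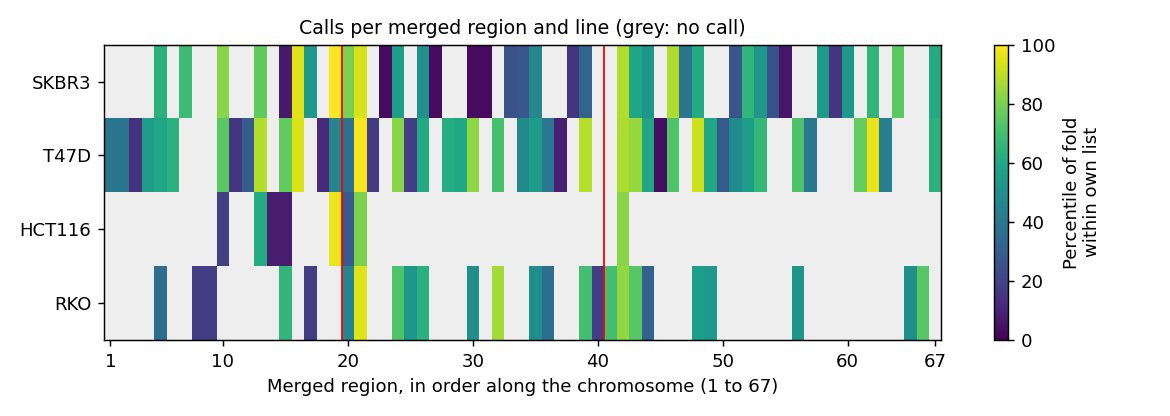
Columns are the 67 merged regions of the protocadherin window in order along the chromosome (x axis), rows are the lines, and the colour gives the percentile of the strongest peak's fold within its own list, with grey for no call. Red lines part the 250 kb stretches. T47D has bright cells in all 3 stretches, SKBR3 has dark cells in the middle, and HCT116 has 1 coloured cell in the upper stretch.

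HCT116 was the shallowest library, and the part of depth in its missing calls was not tested. The lowest pileup of any HCT116 peak was 2 stacked tags. The 39 protocadherin regions called in T47D and not in HCT116 had a median pileup of 11 tags in T47D, which is 2.13 tags after scaling by the libraries' tags (19.4%). Of these 39, 23 came to at least 2 and 12 to at least 3 tags. The 7 regions called in both came to a median of 3.69, the lowest of them to 1.55. For SKBR3 regions not called in HCT116, 7 of 31 came to at least 2 tags, and for RKO regions 7 of 21. Of the 7 SKBR3 regions that HCT116 did call, the lowest came to 0.736 tags, so a scaled value under 2 did not mark where HCT116 had no call. This scaling counts tags only and takes no account of how the share of tags in open regions differs between libraries. The T47D region that came to the most, 10.9 tags, was 140855267 to 140855764 in the upper stretch.

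That region was 1 of the 8 shared by the breast lines alone, with a fold of 19.9 in T47D (percentile 97.0) and 7.09 in SKBR3 (percentile 65.9). The strongest of the 8 in SKBR3 was 140367624 to 140367990 in the lower stretch, with folds of 14.9 in SKBR3 and 18.1 in T47D at percentiles of 95.3 and 94.3. At 140713793 to 140714254 they were 11.7 in SKBR3 and 10.9 in T47D. Those at 140767138 to 140767584, 140777373 to 140777962 and 140891858 to 140892222 had folds of 7.09, 5.73 and 6.55 in SKBR3 and 8.04, 9.77 and 9.30 in T47D. The other 2 stayed under a −log10 q of 10 in both lines. Of the 8, 6 lay in the upper stretch.

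Regions shared by T47D and RKO alone were absent from the lower stretch, with 3 in the middle and 2 in the upper. At 140557199 to 140557595 the folds were 10.6 in T47D and 11.5 in RKO, at percentiles of 70.7 and 86.1. This was the second highest fold of RKO in the window. At 140792465 to 140793085 they were 10.9 in T47D and 5.45 in RKO, and at 140739545 to 140739897 they were 8.53 and 5.84. That SKBR3 and HCT116 had no call at them follows from how these regions were picked. The 1 region shared by SKBR3 and RKO alone, 140368308 to 140368470, had folds of 5.82 and 3.58.

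The regions of a single line were mostly of low or middling rank in their own lists. The 17 T47D regions had a median fold of 6.17 (3.82 to 11.8, median percentile 38.9), and 8 lay in the lower, 4 in the middle and 5 in the upper stretch. Of them 4 reached a −log10 q of at least 10: 140201084 to 140201861 with a fold of 9.28, 140514697 to 140514940 with 8.95, 140529514 to 140529727 with 8.60 and 140819051 to 140819270 with 11.8. The 13 SKBR3 regions had a median fold of 3.87 (2.56 to 8.51, percentile 24.99), a median of 4 stacked tags and a median width of 117 bp, which is the modelled fragment length and so the shortest peak MACS calls there. Of them 1 lay in the lower, 5 in the middle and 7 in the upper stretch, and 1 reached that q, 140857960 to 140858162 with a fold of 8.51. The 6 RKO regions had a median fold of 4.47, and 2 reached it, that at 140652564 given above and 140888703 to 140888899 with a fold of 8.50. The 1 HCT116 region, 140345635 to 140345741, had a fold of 3.65 on 3 stacked tags and lay just below the region at 140345866.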

How the data were processed

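The authors deposited a peak list for each library. Alignment used Bowtie2 2.4.1 and peak calling MACS3 3.0.0b3, on hg19, per the submitters' processing notes. Per the file headers, each library was called alone, from single-end reads of 60 bp, with a q cutoff of 0.1, no control library, 1 tag kept per position and a local background of 10 kb. No shift to the transposase cut site stands in the command lines, so a summit is the centre of extended tags. How reads that match several related genes were treated is not stated. The T47D file calls its input T45D in the header.

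Per the file headers, each row of the deposited lists gives a pileup signal (tags stacked at the summit), a fold enrichment (ratio of pileup to local background), a −log10 p-value and a −log10 q-value. These are values within a library. Those of several lines are given side by side without a common scale, except that pileups were scaled by the libraries' tags where HCT116 had no call.

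Only chromosomes 1 to 22 and X were used, which left out 0.975% to 1.68% of a list. Peaks joined the window by summit. The 4 lists were merged at an overlap of at least 1 bp, and a region counted as called in a line with any peak in it. The rest of the genome was the span from the first to the last peak of each chromosome, assembly gaps included. Shares above 0 have exact Clopper-Pearson 95% intervals for counting error alone, and a share of 0 has the limit of 3 counts. Spread between cultures, libraries and PCR copies is not in them. No test between lines was made. Regions were named where they were called in 3 or 4 lines, or reached a −log10 q of at least 10, or held 1 of the 3 highest folds of a line. The window, the lists and the tests were chosen with earlier results of these data known, and the 250 kb stretches after the peaks were seen. The merging code was tested on simulated data. Alternatives were a −log10 q of at least 10, lists of equal length, other rules of joining peaks and other references for density. Python 3.11.15, pandas 2.3.3 and SciPy 1.17.1 were used.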

Additional observations from a re-analysis of the deposited data

How the results depend on the processing

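The order of the lines by window peaks was kept when weak peaks (−log10 q under 10) were dropped. The window then held 10 peaks in SKBR3, 26 (T47D), 3 (HCT116) and 7 (RKO), and 9, 26, 3 and 7 called regions. From the lower to the upper stretch SKBR3 had 4, 2 and 4 such peaks, T47D 6, 8 and 12, HCT116 1, 1 and 1, and RKO 0, 3 and 4. The merged regions fell to 31, of which 21 were called in 1 line, 8 in 2, 0 in 3 and 2 in 4 lines, with 2 in SKBR3 only and 0 in all lines but HCT116. With lists of equal length RKO passed SKBR3. SKBR3 had 11 peaks (5, 2 and 4) and T47D 29 (7, 9 and 13), in 10 and 29 regions, and RKO had 1 peak in the lower stretch. Of 38 regions, 19 were then called in 1 line, 4 in 3 and 2 in 4 lines, with 2 in SKBR3 only and 0 in all lines but HCT116. So regions missing in HCT116 alone were seen in the full lists only. The series shares of these patterns were not computed for either alternative, so no excess or lack was judged there. Both alternatives keep fewer peaks by construction. T47D had the most window peaks under every list used. Set against the flanking windows, the density ratio was 0.636 (SKBR3), 1.01 (T47D), 0.339 (HCT116) and 0.536 (RKO). Joining peaks by summits within 150 bp (12 results) or by 50% overlap (12), and membership by any overlap (8), moved no count by more than 1.5 times. Calls at variable and constant exons were planned with their alternatives and not run, as no hg19 annotation was used here. No paired analysis was possible because each line has 1 library and no test was made. Depth limits what absence means most in HCT116.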
